A study of Mus musculus with 8 samples.

Results

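The paraflocculus and flocculus (PF/F) are lobules in the ventrolateral part of the cerebellum. Their pericytes were the 74 nuclei that the deposited annotation calls Pericyte, of 48237 annotated PF/F nuclei (0.153%) and 79313 in the whole series. They were the smallest of 16 annotated types, with 216921 unique molecular identifiers (UMIs) among them. Single-nucleus RNA sequencing (snRNA-seq) was done on the PF/F of wild-type (WT) mice and of littermates heterozygous for a germline mutation of Tbx1 (Tbx1+/-), both on a C57BL/6J background and both at postnatal day 5.5. Each genotype had 2 libraries, and each library held nuclei of 5 pooled mice, so that 4 libraries, not 74 nuclei, were the replicates. Libraries are numbered 1 and 2 as in their titles, and a shared number is taken here as a batch, which the titles do not state. The Tbx1 allele is carried by every cell of the mutant, and no line marked the pericytes. Nuclei were freed from frozen tissue in detergent buffer, so the numbers below are of recovered nuclei. A level is given in CPM, counts per 1000000 UMIs summed over the nuclei of a type, and it is compared only for the same gene between types or libraries. Where 4 values follow each other they stand for WT 1, WT 2, Tbx1+/- 1 and Tbx1+/- 2.

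Pericytes are mural cells that sit within the basement membrane of capillaries, wrapped around the endothelial tube. Endothelial cells release PDGF-B, which holds pericytes to the vessel through the receptor PDGFRβ, while Notch, TGF-β and angiopoietin signals pass between the same partners. In the brain they help to form the blood-brain barrier and can change capillary width, and at the early postnatal age of these mice the cerebellar vessels are still growing. Smooth muscle cells, the mural cells of arterioles, share several of their genes and are told apart by contractile proteins such as Acta2 and Myh11.

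The libraries held 12, 19, 18 and 25 pericytes with 34852, 67554, 46905 and 67610 UMIs. A pericyte had a median of 2534.5 UMIs (1498 to 9422) and 1625 detected genes, against a median of 3034 UMIs over all annotated nuclei. A gene without a UMI in any pericyte could still have been at up to 13.8 CPM, the level of 3 counts, and this limit and the intervals below cover counting error only. The library totals ran from 44713226 to 60627200 UMIs. Between 50 and 85 barcodes were shared by each pair of libraries, and none of the shared barcodes was a pericyte in both. The counts used here were not corrected for free RNA. The annotation lists UMIs per nucleus, taken here as those after such a correction. They were 0.735 to 0.799 of the raw UMIs in pericytes, by library median, and 0.752 to 0.818 in all nuclei.

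The label was checked against 14 pericyte markers, of which 12 had their highest level in these nuclei. The types were made by clustering the same nuclei, so that levels against other types describe the annotation and were not tested. Pdgfrb, the PDGF-B receptor that defines the type, was at 1463, 1125, 1173 and 1878 CPM (mean 1409.8 ± 346, SD, n = 4). The next type, meningeal nuclei, had 133 CPM pooled and 86.4 to 172 CPM by library, so no library of one overlapped a library of the other. Vtn, which encodes the matrix protein vitronectin, was at 746, 533, 895 and 1376 CPM, against 257 CPM in meningeal nuclei. Rgs5, a regulator of G-protein signalling and a classical mural marker, was at 717, 533, 661 and 828 CPM, against 134 CPM in endothelial nuclei. Cspg4, the NG2 proteoglycan, reached 323 CPM pooled and 94.1 CPM in oligodendrocyte nuclei, and Higd1b, a mitochondrial protein gene, 152 CPM and 26.6 CPM in endothelial nuclei. The exceptions were Anpep, at 5 UMIs in all pericytes and second to meningeal nuclei, and Gpr4, at 0 UMIs. Summed, the list was at 7661, 6513, 6950 and 10620 CPM in pericytes and at 555 CPM in endothelial nuclei, the next type.

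The markers were found together in single nuclei. Of 7 core markers (Pdgfrb, Abcc9, Atp13a5, Rgs5, Vtn, Notch3 and Kcnj8), every pericyte had at least 3, the median was 6, and 20 pericytes had all 7. Pdgfrb had a UMI in 70 pericytes. After thinning each nucleus to 1500 UMIs, which left out 1 pericyte, Pdgfrb was seen in 83.6% of pericytes (95% exact interval 73.0 to 91.2%; 94.6% before thinning), 19.7% of meningeal nuclei and 0.132% of nuclei annotated Diff.Granule Neuron, a type that should lack the gene. The median depth of the granule nuclei was 2973 UMIs.

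**Figure D1:**
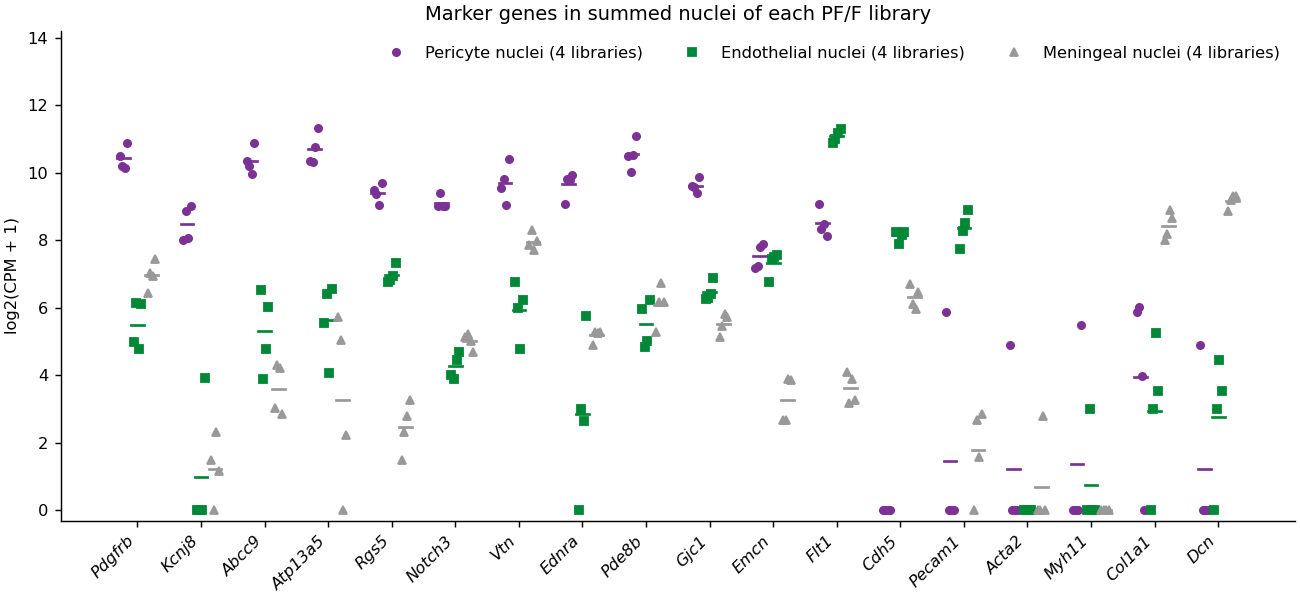
Levels of 18 genes on a log2(CPM + 1) axis in pericytes, endothelial nuclei and meningeal nuclei, with 1 point per library and a bar at the mean of the 4 libraries. For Kcnj8, Abcc9, Atp13a5, Ednra and Pde8b all 4 pericyte points lie above every point of both other types, whereas Acta2 and Myh11 have no UMI in 3 of the 4 pericyte libraries.

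The genes with the largest ratio of pericyte level to the next type included Pdgfrb and the core markers Kcnj8, Abcc9 and Atp13a5. Of 2553 genes with at least 20 pericyte UMIs and 1 or more in each library, 556 (21.8%) had their highest level in pericytes, 66 were at least 3-fold and 36 at least 5-fold over the next type. The 25 with the largest ratio, 6.79-fold to 65.6-fold, were above each of the 15 other types in all 4 libraries. The next type was meningeal for 11 of them and endothelial for 7. The 25 include 20 protein-coding genes and 5 noncoding transcripts. All 25 stayed highest in pericytes when any library was left out, but they were chosen on these same libraries, so this was no independent check. The number of genes at least 3-fold over the next type was 45 without Tbx1+/- 2, the library with the most pericytes.

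Kcnj8 and Abcc9 led this order. They encode the pore Kir6.1 and the sulphonylurea receptor SUR2, which together form the ATP-sensitive potassium channel of vascular mural cells. Kcnj8 was at 258, 266, 469 and 518 CPM, against 5.90 CPM in endothelial nuclei, a 65.6-fold ratio. With 677717 UMIs over all endothelial nuclei, 5.90 CPM is only a few counts, so the size of this ratio is uncertain. Abcc9 was at 1319.9, 1007, 1173 and 1893 CPM, against 45.7 CPM in endothelial nuclei, a 29.9-fold ratio. Both genes had UMIs in 41 pericytes, Abcc9 alone in 24, Kcnj8 alone in 6, and 3 pericytes had neither. Thinned to 1500 UMIs, Kcnj8 was seen in 47.9% of pericytes (36.1 to 60.0%; 63.5% before thinning), 0.143% of Diff.Granule Neuron nuclei and none of 183 endothelial nuclei. The pancreatic and neuronal partners of the same channel family were low: Kcnj11 had 0 UMIs and Abcc8 had 10.

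Both genes are neighbours on chromosome 6 (GRCm38, minus strand), Kcnj8 at 142564837 to 142571614 and Abcc9 at 142587862 to 142702315. The gap is 16.2 kb and no annotated gene lies in it. Since neighbours led the list, the 250 bases before a RefSeq start site of each are shown 5′ to 3′ on the gene's strand on GRCm38.p6, in lower case, with the letters TGGGAA in capitals (the core bound by the Notch partner RBPJ, searched on both strands):
Kcnj8, chr6:142571615-142571864: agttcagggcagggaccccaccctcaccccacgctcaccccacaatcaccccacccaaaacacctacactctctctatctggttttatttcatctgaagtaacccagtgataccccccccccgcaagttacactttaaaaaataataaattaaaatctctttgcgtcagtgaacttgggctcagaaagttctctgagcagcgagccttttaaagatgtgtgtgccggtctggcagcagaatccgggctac
Abcc9, chr6:142702275-142702524: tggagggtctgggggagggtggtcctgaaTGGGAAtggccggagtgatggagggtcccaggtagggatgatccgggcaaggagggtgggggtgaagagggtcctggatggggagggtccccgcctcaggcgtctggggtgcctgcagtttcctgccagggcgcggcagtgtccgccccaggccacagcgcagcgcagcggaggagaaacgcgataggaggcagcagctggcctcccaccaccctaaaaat
The 6 letters occur once in the Abcc9 stretch and not in the Kcnj8 stretch. They occur in 21.6% of all 32851 promoters of this length in the table and in 6 of the 26 promoters (23.1%) listed for 18 of the 25 leading genes, so the share among leading genes was close to that of all promoters.

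**Figure D2:**
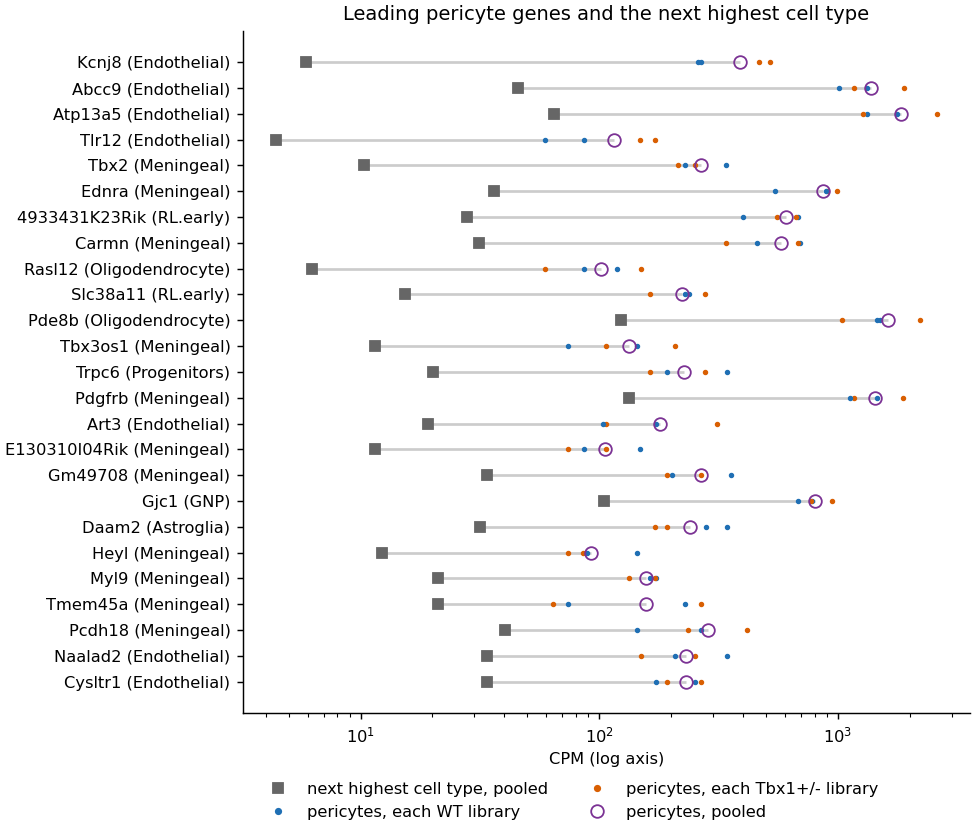
The 25 genes with the largest ratio of pericyte level to the next type, in CPM on a log axis, with the pooled pericyte value, 1 point per pericyte library and the pooled value of the next type. Kcnj8, at 387 CPM pooled against 5.90, has the widest gap, and in each row the library points lie to the right of the next type.

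Among transporters, 7 of 18 listed genes were highest in pericytes. The counts of highest genes for this and the later lists include genes with few UMIs, unlike the 21.8% over all genes with at least 20, and were not tested. Atp13a5, a P5-type ATPase gene used as a marker of brain pericytes, was at 1319.9, 1762, 1279 and 2588 CPM, against 64.9 CPM in endothelial nuclei. Slc16a12, a creatine and monocarboxylate carrier, was at 344, 370.1, 341 and 666 CPM, with 98.6 CPM in meningeal nuclei. Slc30a10, a manganese exporter, was at 244 CPM pooled against 139 CPM in astroglia. Slc38a11, an amino acid transporter of the SLC38 family, was at 221 CPM against 15.4 CPM in nuclei annotated RL.early. Slc6a20a, a proline carrier, was second, at 299.6 CPM against 666 CPM in meningeal nuclei. Of 6 genes whose human forms are mutated in brain calcification, Pdgfrb was the 1 highest in pericytes, while the phosphate carriers Slc20a2 and Xpr1 were at 59.9 and 101 CPM.

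Of 25 listed genes for vasoactive receptors and cyclic nucleotide signalling, 12 were highest in pericytes and above the 3-count limit. Ednra, the endothelin A receptor through which endothelin-1 contracts vessels, was at 545, 888, 895 and 991 CPM, against 36.1 CPM in meningeal nuclei. Its partner type Ednrb had 9 UMIs. The 3 subunit genes of the nitric oxide receptor guanylyl cyclase were high together: Gucy1a1 was at 567 CPM pooled against 167 CPM in astroglia, Gucy1a2 at 1143 CPM against 304 CPM in GABA.interneuron nuclei, and Gucy1b1 at 318 CPM against 76.3 CPM in astroglia. Each Gucy1b1-positive pericyte, 37 in all, also had an alpha subunit UMI. At the higher levels of the alpha genes such overlap was likely in any case, and it was not tested. Prkg1, the kinase that cyclic GMP activates, was at 2525, 3760.0, 3283 and 2958 CPM, against 2073 CPM in Purkinje nuclei. The phosphodiesterases that break down the messengers were high as well. Pde5a, specific for cyclic GMP, was at 581 CPM against 110.1 CPM in meningeal nuclei. Pde8b, specific for cyclic AMP, was at 1463, 1495, 1045 and 2204 CPM, against 124 CPM in oligodendrocyte nuclei. The noncoding transcript 4933431K23Rik overlaps Ednra on the other strand and was at 604 CPM in pericytes. Whether the counting used strand is not given in the sources used here, and without strand the reads of the pair cannot be told apart.

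Of 20 listed potassium, calcium and chloride channel genes, 5 were highest in pericytes, Kcnj8 and Abcc9 among them, and 6 had at most 3 UMIs, of which 3 had none. The summed list was at 6500.1 CPM, below the 9069 CPM of Purkinje nuclei. Trpc6, a cation channel opened by diacylglycerol, was at 226 CPM pooled against 20.1 CPM in nuclei annotated Progenitors. Ano1, the calcium-activated chloride channel of contractile cells, was at 189 CPM against 92.9 CPM in astroglia. Gjc1, the connexin 45 gap junction subunit, was at 775, 681, 768 and 947 CPM, against 105 CPM in GNP nuclei.

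Most contractile genes of smooth muscle had few UMIs. Of 18 listed contraction and cytoskeleton genes, 5 (Mylk, Cald1, Myl9, Flna and Rock1) were highest in pericytes and above the 3-count limit, 5 were second and 6 had at most 3 UMIs. Of 12 smooth muscle markers, Acta2, Tagln, Cnn1, Des, Pln and Tpm2 had 1 UMI each in all 74 pericytes and Myh11 and Synpo2 had 3 each. Myocd, the master regulator of smooth muscle genes, and Lmod1 had 4 each. Mylk, the myosin light chain kinase, was the exception with 42 UMIs, 194 CPM against 47.6 CPM in meningeal nuclei. The antisense transcript E130310I04Rik, which lies within Mylk, was itself among the 25 leading genes at 106 CPM, and the same limit on strand applies to this pair. Smtn, the last marker, had 11 UMIs and was second to endothelial nuclei. Among genes of wider use, Cald1, the actin-binding protein caldesmon, was at 1836, 1673, 1833 and 2041 CPM, against 412 CPM in meningeal nuclei, and Myl9, a regulatory myosin light chain, at 157 CPM against 21.1 CPM in meningeal nuclei. Carmn, a noncoding RNA of mural cells, was at 576 CPM against 31.5 CPM in meningeal nuclei. Of the 12 markers 7 were highest in pericytes, 2 of them, Mylk and Lmod1, above the 3-count limit. The summed smooth muscle list was at 256 to 373 CPM by library and 337 CPM pooled, of which Mylk made 194 CPM, and it was the highest sum of the 16 types, with 175 CPM in nuclei annotated RL.early.

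Of 24 listed genes of the basement membrane, which pericytes share with endothelial cells, 8 were highest in pericytes and 6 second, and 5 had at most 3 UMIs. Summed, the list was at 5447 to 8321 CPM by library, against 5599 CPM in meningeal nuclei, the next type, so WT 2, the lowest, was below the meningeal level. Col4a1 and Col4a2, the main collagen IV chains of vessels, were found together in 65 pericytes. Col4a1 was at 2468, 1273, 1727 and 1775 CPM, against 759.9 CPM in endothelial nuclei, and Col4a2 at 862 CPM pooled against 643 CPM in endothelial nuclei. Nid1 (nidogen), Lamc1 and Lamb1 (laminin chains) and Agrn (agrin) were at 585 CPM, 415 CPM, 254 CPM and 277 CPM, with next types at 298 CPM, 259.7 CPM, 171 CPM and 202 CPM. Lama4 was second to endothelial nuclei (687 CPM against 838 CPM) and Lama2 second to meningeal nuclei (521 CPM against 824 CPM). For cell attachment, Itga1, the collagen-binding integrin alpha 1, had a UMI in all 74 pericytes, at 1176, 1658, 1535 and 1967 CPM, against 404 CPM in endothelial nuclei. Its partner Itgb1 was at 811 CPM against 537 CPM in endothelial nuclei. Cdh2, the N-cadherin of pericyte to endothelial contacts, was at 562 CPM, below the 927 CPM of endothelial nuclei.

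Signalling pathways of the vessel wall were described by their ligands and receptors. For PDGF, Pdgfrb was high in pericytes, while the ligand genes Pdgfb and Pdgfd had 1 UMI each there and were at 158 and 244 CPM in endothelial nuclei. Pdgfra, the receptor of fibroblasts and oligodendrocyte precursors, had 6 UMIs in pericytes. For Notch, 6 of 15 genes were highest in pericytes. Notch3, the mural receptor, was at 516, 518, 682 and 518 CPM, against 147 CPM in astroglia. Its target genes were lower in counts: Heyl was at 92.2 CPM against 12.3 CPM in meningeal nuclei, Hey2 at 36.9 CPM against 8.90 CPM in astroglia, and Hes1 at 143 CPM against 85.6 CPM in endothelial nuclei. The ligand gene Jag1 was at 106 CPM against 76.0 CPM in meningeal nuclei, Notch1 at 157 CPM against 128 CPM in endothelial nuclei, and Notch2 had 6 UMIs. Of 24 TGF-β and BMP genes, Tgfb1 and Smad4 were highest in pericytes, Tgfb1 at 83.0 CPM against 70.1 CPM in immune nuclei and Smad4 at 161 CPM against 158 CPM in GNP nuclei. Both margins were narrow, with pericytes above all other types in 2 libraries for Tgfb1 and 1 for Smad4. S1pr3, a sphingosine-1-phosphate receptor, was at 171 CPM against 26.7 CPM in nuclei annotated RL.early. Angpt1, the angiopoietin that mural cells supply to endothelial Tie2, was at 286 CPM, below 4 other types, and Vegfa had 0 UMIs.

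Of 22 listed transcription factors of mural cells, Tbx2, Heyl, Foxs1 and Epas1 were the 4 highest in pericytes, 9 were second and 3 had 0 UMIs. Tbx2 was at 229.5, 340.5, 213 and 251 CPM, against 10.4 CPM in meningeal nuclei, with UMIs in 34 pericytes. Foxs1, a forkhead gene of neural crest and mural cells, had 6 UMIs (27.7 CPM against 1.55 CPM in the next type). Epas1, the hypoxia-inducible factor 2 alpha, was at 263 CPM, close to 251 CPM in endothelial nuclei. Tbx3os1, a noncoding transcript that overlaps Tbx3, was among the leading 25 at 134 CPM, while Tbx3 itself had 4 UMIs. Ebf1 was in all 74 pericytes at 4447, 4456, 5031 and 5295 CPM, second to Purkinje nuclei at 5781 CPM and above endothelial nuclei at 1480.0 CPM. Foxf2, Foxc1 and Tbx18, other regulators of brain mural cells, had 1, 5 and 14 UMIs. Tbx1 had 0 UMIs in pericytes of each library and 20 UMIs in endothelial nuclei (29.5 CPM), so the genotype could not be read from Tbx1 in pericytes.

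The nuclei carried few markers of neighbouring types. Endothelial markers were at 533 to 1176 CPM by library for the list of 14, against 9773 CPM in endothelial nuclei. Cdh5, Erg and Abcb1a, defining endothelial genes, had 0 UMIs, Pecam1 had 2 and Cldn5 had 7. Fibroblast and meningeal markers were at 399 to 775 CPM against 5097 in meningeal nuclei, with Bnc2 at 0 and Dcn at 1 UMI. Neuron markers were at 545 to 1021 CPM against 4200 in Diff.Granule Neuron nuclei, and 6 pericytes had 10 to 20 neuron marker UMIs where the median was 1. Astroglia, oligodendrocyte and immune lists were at 360, 106 and 148 CPM pooled, against 7343, 7329 and 6523 CPM in their own types. Erythroid markers were at 300 CPM against 8512 in endothelial nuclei, and choroid plexus markers at 240 against 2964 in nuclei annotated RL.early. No caller of doublets is stated for these nuclei, and 1 pericyte of WT 1 with 4332 UMIs had 10 UMIs over Pecam1, Cdh5, Cldn5 and Kdr.

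Flt1 and Emcn, both known from endothelium, departed from the rest of that list. Flt1, the VEGF receptor 1, had 77 UMIs in pericytes, at 545, 355, 319.8 and 281 CPM against 2321 CPM in endothelial nuclei. Emcn, which encodes the sialomucin endomucin, had 43 UMIs, at 143, 222, 149 and 237 CPM, and 176 CPM in endothelial nuclei. Of the 74 pericytes, 67 had no UMI of Pecam1, Cdh5, Cldn5 or Kdr, whereas each of the 183 endothelial nuclei had one. In these 67, Flt1 was still at 311 CPM in 31 nuclei and Emcn at 186 CPM in 28 nuclei. After thinning, Emcn was seen in 27.4% of pericytes (17.6 to 39.1%; 43.2% before) and 23.5% of endothelial nuclei, against 1.71% of meningeal and 2.62% of Diff.Granule Neuron nuclei. Flt1 was seen in 39.7% of pericytes (28.5 to 51.9%; 47.3% before), 85.2% of endothelial, 0.999% of meningeal and 0.456% of Diff.Granule Neuron nuclei. The interval of Emcn in pericytes held the endothelial share, and that of Flt1 lay below it.

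Some pericytes carried cell cycle transcripts. Over 30 cell cycle genes a pericyte had 0 to 68 UMIs with a median of 3.5, and 23 of 74 (31.1%, 20.8 to 42.9%) had at least 10, a threshold chosen after the values were seen. These 23 came from every library, as 5, 6, 4 and 8 nuclei. The share with at least 10 was 4.82% in Diff.Granule Neuron nuclei, which have left the cell cycle, 14.6% in meningeal nuclei, 23.5% in endothelial nuclei and 60.9% in GNP nuclei, the proliferating granule neuron precursors. Thinned to 1500 UMIs, at least 3 cell cycle UMIs were seen in 47.9% of pericytes (36.1 to 60.0%; 60.8% before), 39.3% of endothelial nuclei, 29.7% of meningeal nuclei and 19.8% of Diff.Granule Neuron nuclei. Mki67, the Ki67 antigen of cycling cells, was at 115 CPM in pericytes with UMIs in 18 nuclei, against 255 CPM in GNP nuclei, and Top2a at 318 CPM against 732. Pericyte markers were present in nuclei with and without these transcripts. Pdgfrb had a UMI in 22 of the 23 nuclei and in 48 of the other 51, and the summed pericyte markers were at 7172 and 8628 CPM. The nuclei with at least 10 were deeper, with a median of 2937 against 2260.0 UMIs, and the part of depth and of free RNA in these counts was not tested.

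**Figure D3:**
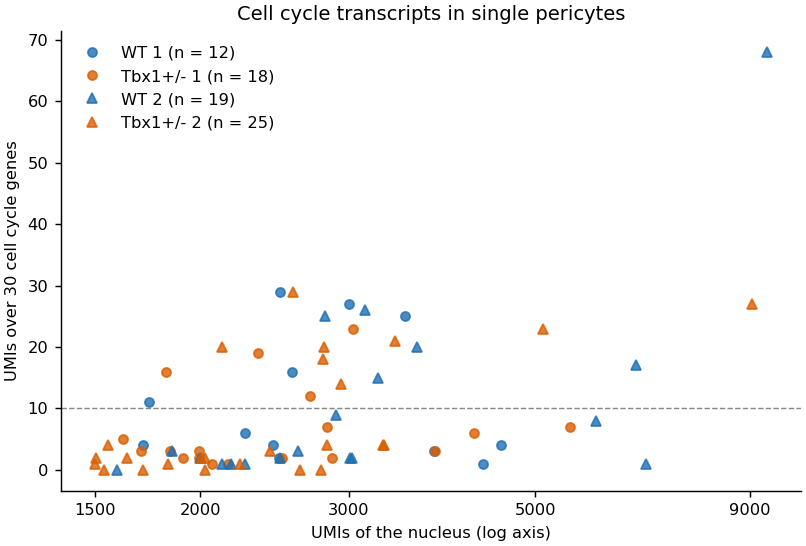
UMIs over 30 cell cycle genes against all UMIs of each of the 74 pericytes, marked by library, with a dashed line at 10. The 23 nuclei above the line come from all 4 libraries, and 1 nucleus of WT 2 with 9422 UMIs stands highest at 68.

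The number of pericytes was then compared between genotypes. Pericytes were 0.0979% (0.0506 to 0.171%) and 0.208% (0.125 to 0.324%) of annotated nuclei in WT 1 and WT 2, and 0.130% (0.0771 to 0.206%) and 0.192% (0.125 to 0.284%) in Tbx1+/- 1 and 2. The Tbx1+/- values lay between both WT values. The log2 change was 0.11 (SE 0.48, adjusted p = 0.976 over 16 types, edgeR's quasi-likelihood test with Benjamini-Hochberg adjustment). Its direction was not stable, at -0.46 in nuclei with at least 2000 detected genes and from -0.36 to 0.71 with 1 library left out. p-values here measure the spread between these pools. Relative to the endothelial nuclei that they cover, pericytes were 0.8, 0.345, 0.375 and 0.385 per endothelial nucleus. WT 1 stood apart with 12 pericytes to 15 endothelial nuclei, and the other 3 libraries were close to each other. The log2 ratio was -0.47 in Tbx1+/- against WT, with an exact two-sided permutation p of 1.0, where the smallest p that 2 against 2 libraries can give is 0.333. Within batch 1 the difference was -1.09 and within batch 2 it was 0.15, so the direction did not hold between batches, and without WT 1 it was 0.14. In nuclei with at least 2000 detected genes, 16 of the 74 pericytes, the ratios were 0.571, 0.217, 0.188 and 0.125. There both Tbx1+/- libraries were below both WT libraries, with a log2 ratio of -1.20 and an exact two-sided permutation p of 0.333, the smallest possible.

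**Figure D4:**
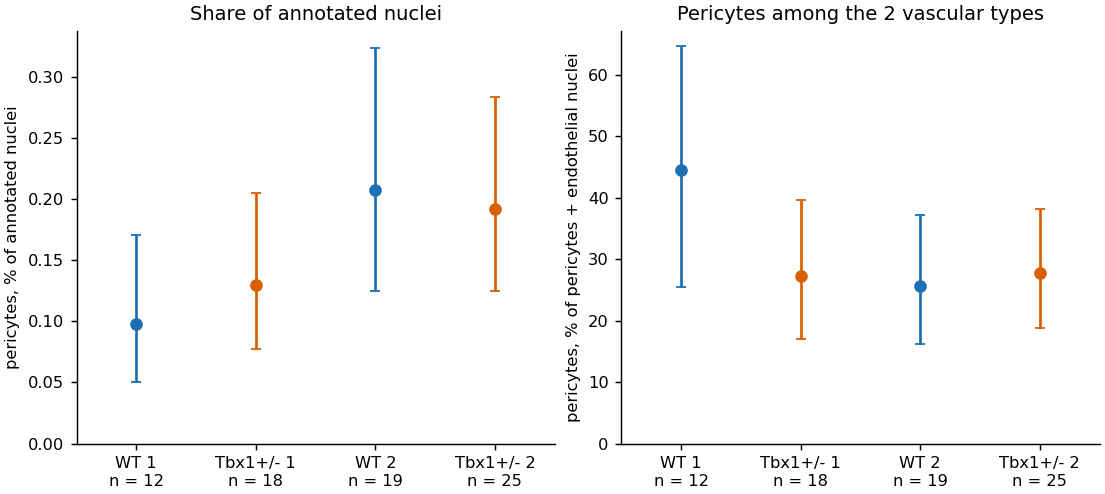
Pericytes as a percentage of annotated nuclei (left) and of pericytes plus endothelial nuclei (right) in each library, with exact 95% intervals of counting error. The genotypes overlap in both panels, and WT 1 has the highest percentage of pericytes on the right, 44.4%, with an interval of 25.5 to 64.7%.

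Gene expression in pericytes was compared between genotypes on the summed UMIs of each library. The labels do not give the sex of the pooled mice. Xist, the X inactivation RNA, was at 1033, 1673, 298 and 2159 CPM in pericytes, and the part of sex in the values below was not tested. No gene was called among 1237 tested at an adjusted p under 0.05 and a change above 1.5-fold (0 higher and 0 lower, 0%, edgeR's quasi-likelihood test with Benjamini-Hochberg adjustment), and DESeq2 called 0. At an unadjusted p under 0.05, edgeR had 7 genes higher and 8 lower in Tbx1+/-. The median log2 change of the tested genes was -0.01, with 610 positive and 627 negative. Of the pericyte markers 10 of 14 were tested and 0 called, 8 with a positive and 2 with a negative log2 change (median 0.23). The median of the markers tested turned to -0.10 in nuclei with at least 2000 detected genes and to -0.054 without Tbx1+/- 2. Pdgfrb had a log2 change of 0.22 (SE 0.43), Abcc9 of 0.38 (SE 0.44), Atp13a5 of 0.30 (SE 0.45) and Kcnj8 of 0.89 (SE 0.41), each with an adjusted p of 0.999 (edgeR). Kcnj8 was lower in both WT libraries than in both Tbx1+/- libraries, as were 13.7% of all genes tested, while the libraries of Pdgfrb, Abcc9 and Atp13a5 overlapped. Leaving out a library changed the counts of calls: without WT 1 there were 1 higher and 4 lower, without WT 2 there was 1 higher, and without Tbx1+/- 1 there was 1 lower, with the lone library taken to vary like the other group.

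Other groups of genes gave no call either. Of the basement membrane list 11 of 24 genes were tested, 6 with a positive log2 change (median 0.18), and of the vasoactive list 11 of 25, 8 with a positive one (median 0.23). The channels had 10 of 20 tested with a median of -0.13, integrins and junctions 7 of 22 with a median of 0.22, transporters 7 of 18 with a median of 0.48, and transcription factors 6 of 22 with a median of 0.07. The cell cycle list had 6 of 30 tested, each with a negative log2 change (median -0.33) and none with an unadjusted p under 0.05. Summed, all 30 were at 3787, 3049, 2494 and 2988 CPM, with WT 1 the highest library and WT 2 close to Tbx1+/- 2. The WT 2 value includes 68 cell cycle UMIs of 1 nucleus with 9422 UMIs, the most in any pericyte. The contraction list had 5 of 18 tested (median -0.51), Notch signalling 3 of 15 (median 0.19), TGF-β and BMP signalling 2 of 24 (median -0.04), the angiopoietin, VEGF and S1P list 4 of 13 (median -0.38), and PDGF signalling Pdgfrb alone. No gene of the region syntenic to human 22q11.2, with 35 of 38 matched, had enough UMIs to be tested in pericytes.

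The genes with the smallest p among those that changed alike in both batches are given here as not called. Agrn, the agrin of the basement membrane, had 7, 11, 18 and 24 UMIs and a log2 change of 1.02 (SE 0.41). Dlgap1, a synaptic scaffold gene, had 4, 6, 19 and 18 UMIs and a log2 change of 1.71 (SE 0.52). Set (a histone chaperone), 4833422C13Rik and Dock11 (a guanine exchange factor) had log2 changes of 1.75 (SE 0.64), 1.44 (SE 0.55) and 1.38 (SE 0.53). On the lower side, Csmd1, a complement regulator of the nervous system, had 7, 56, 8 and 4 UMIs and a log2 change of -2.33 (SE 0.73). Sdk1 (a synaptic adhesion protein) had -1.63 (SE 0.55), Sh3kbp1 (an endocytic adaptor) -1.27 (SE 0.47), Ctnna3 (an alpha catenin) -1.15 (SE 0.42) and Gm4258 -1.07 (SE 0.40). All 10 had an adjusted p of 0.999 (edgeR). Their libraries did not overlap between genotypes, which the choice by p and by a like change in both batches nearly fixed. The same held for 13.7% of all genes tested in the higher and 13% in the lower direction.

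Single nuclei carried several of these values. Csmd1 had 75 UMIs in 12 pericytes, of which 22 and 15 were in 2 nuclei of WT 2, and each of these 2 nuclei also had 17 neuron marker UMIs, where the median pericyte had 1. Dlgap1 had 16 of its 47 UMIs in 1 nucleus of Tbx1+/- 2 with 20 neuron marker UMIs and 10 in 1 nucleus of Tbx1+/- 1 with 19. Without the 6 pericytes with at least 10 neuron marker UMIs, a choice made after the values were seen, Csmd1 and Dlgap1 had too few UMIs to be tested, Agrn had a log2 change of 1.14 (SE 0.43), and no gene was called among 882 tested (edgeR). Agrn was more evenly spread, with UMIs in 37 pericytes and at most 4 in any of them.

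**Figure D5:**
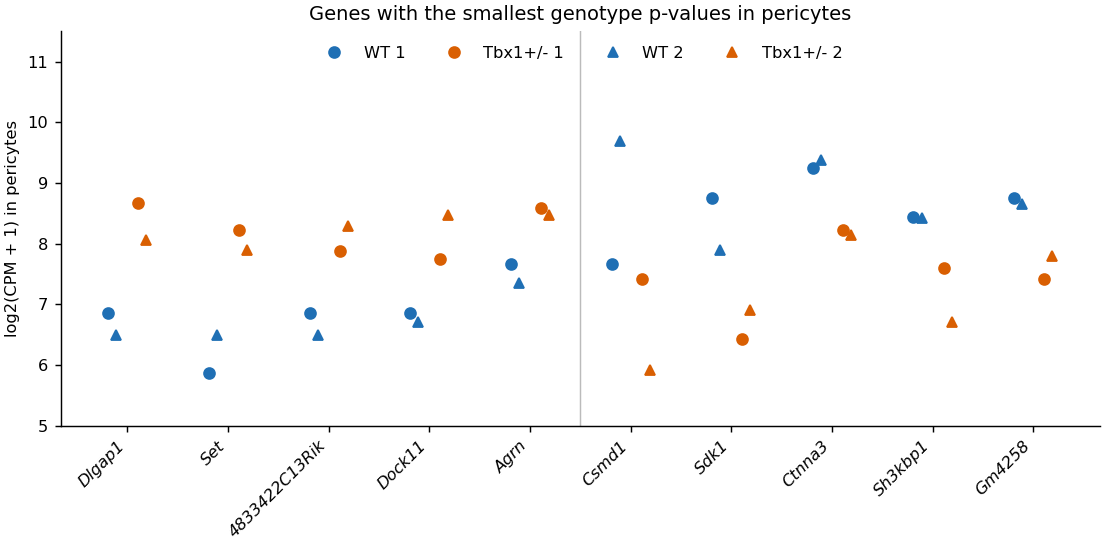
Levels in CPM of the 10 genes with the smallest p between genotypes, none of which was called, with 1 point per library. Csmd1 at 829 CPM in WT 2 stands away from the other 3 libraries, at 59.2 to 201 CPM, whereas Agrn lies at 163 and 201 CPM in WT and at 355 and 384 CPM in Tbx1+/-.

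Whether pericytes changed differently from their neighbours was tested as a difference of the genotype changes. Against endothelial nuclei, 0 of 2280 genes were called (0% in each direction, edgeR; DESeq2 called 0), with 18 and 21 genes at an unadjusted p under 0.05 in the higher and lower directions. Kcnip4, a potassium channel interacting protein of neurons, had the smallest p, with a log2 difference of -4.89 (SE 0.91, adjusted p = 0.464, edgeR). In endothelial nuclei Kcnip4 was at 45.9, 116, 490 and 574 CPM, higher in both Tbx1+/- libraries, so both types entered this difference. Of its 302 pericyte UMIs, 166 and 69 were in the same 2 nuclei of WT 2 with 17 neuron marker UMIs, and without the 6 pericytes rich in neuron markers the difference was -1.31 (SE 0.88, adjusted p = 1.0, edgeR). With 1 library left out the difference of Kcnip4 ran from -6.53 without Tbx1+/- 2 to -2.46 without WT 2, and it was called without WT 1 (adjusted p = 2.13e-14, edgeR) and without Tbx1+/- 1 (adjusted p = 0.0351, edgeR). Against meningeal nuclei, 0 of 7801 genes were called (0% in each direction, edgeR; DESeq2 called 0), with 121 and 107 at an unadjusted p under 0.05. Csmd1, Errfi1 and Sox2ot had the smallest p, with log2 differences of -2.49, -4.52 and -4.94 and an adjusted p of 0.0610 each (edgeR). With the batch in place of the library as a term they were -2.63, -4.75 and -5.23 at an adjusted p of 0.0214 (edgeR). Unlike in pericytes alone, Csmd1 could be fitted here without the pericytes rich in neuron markers, and its difference stayed negative and was not called. Errfi1, a feedback inhibitor of EGF receptor signalling, had 20 of its 28 UMIs in 1 nucleus of WT 2. Sox2ot, a noncoding transcript around Sox2, had 24 of its 25 UMIs in the 1 nucleus of WT 2 with 9422 UMIs and 68 cell cycle UMIs. Without WT 2 it had 1 UMI in all other pericytes, too few for a difference. Without WT 2 the log2 difference of Csmd1 was -0.84 (SE 0.79) and that of Errfi1 -3.27 (SE 1.79), with an adjusted p of 0.975 each (edgeR). Without WT 1 all 3 genes were called, with adjusted p of 3.50e-05 for Csmd1, 0.00321 for Errfi1 and 0.000734 for Sox2ot (edgeR). Epha5, an ephrin receptor gene, was next and in the higher direction (adjusted p = 0.0702, edgeR). It had 0, 0, 9 and 1 pericyte UMIs, so that with WT at 0 no fold is given. Of these UMIs, 5 were in 1 nucleus of Tbx1+/- 1 with 5505 UMIs and 19 neuron marker UMIs. Epha5 was called without Tbx1+/- 2, which leaves 1 Tbx1+/- library.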

How the data were processed

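The deposited matrices hold uncorrected UMI counts (genes by barcodes) from the authors' run of Cell Ranger 7.0.0 with introns on mm10, before their SoupX correction. The authors kept nuclei with at least 1000 detected genes, left out outliers, clustered by the Louvain method and named clusters by label transfer and curation. The PF/F annotation, as deposited by the authors, also lists an expected count per nucleus, its UMIs after SoupX, used here only for a ratio. Deposited annotations gave every cell type, and petrous bone counts were not used here.

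UMIs were summed per type and library (Python 3.11.15, numpy 2.4.6, scipy 1.17.1, pandas 2.3.3). Genotypes were compared with edgeR 4.0.16 (filterByExpr, TMM, quasi-likelihood test) and DESeq2 1.42.0 in R 4.3.3, with Benjamini-Hochberg adjustment over all genes tested, after a check of the edgeR fits on simulated counts. There, log2 changes of 1, 2 and 3 between genotypes in pericytes were recovered for 0, 108 and 146 of 200 genes. For the difference from endothelial nuclei the same log2 values were recovered for 2, 0 and 114 of 200 genes. Against meningeal nuclei they were recovered for 0, 14 and 83. A log2 change of -1 in the share of pericytes was called in 4 of 50 simulations, and a change of -2 in 26 of 50. The absence of calls therefore does not exclude changes of 2-fold, or log2 differences of 2 from endothelial or meningeal nuclei. SE is the log2 change over the root of F. Shares used the same edgeR test at a false discovery rate of 0.1. Gene coordinates came from GENCODE vM21, which held 32158 of 32285 features.

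Named genes were the listed genes, the 25 leading genes, the 5 with the smallest p per direction that changed alike in both batches, the 5 with the smallest p per interaction test, and Tbx1. Some of these genes are not reported here. The nuclei and lists were chosen with earlier results of these data known.

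Libraries of 1 number were taken to form a batch, since the study processed a second set of mice separately, but the titles give only replicate numbers. As a check, WT 1 and Tbx1+/- 1 departed from the means of their genotypes with a correlation of 0.155 over 1237 genes. This does not settle the pairing. Alternatives were RLE factors, DESeq2, no filter, the replicate block, other choices of nuclei, and leaving out each library.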

Additional observations from a re-analysis of the deposited data

Results flagged for a closer look

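Barcodes outside the annotation held a pericyte signal. Of 9721 unannotated PF/F barcodes, 50 had at least 3 UMIs over the pericyte markers and fewer over each other list, with 7 in WT 1, 16 in WT 2, 6 in Tbx1+/- 1 and 21 in Tbx1+/- 2. The same rule was met by 73 of 74 annotated pericytes and by 16 of 48163 other annotated nuclei. The 50 barcodes were shallow, with a median of 1102 UMIs and 830.5 detected genes, and 32 had fewer than the 1000 genes that the annotation required. Genes that the rule did not use were at levels near those of annotated pericytes: Ednra was at 704 CPM, Pde8b at 1408 CPM, Gjc1 at 664 CPM and Tbx2 at 186 CPM. By the same kind of rule 135 barcodes were endothelial-like and 1 was smooth muscle-like.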

How the results depend on the processing

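The 12 pericyte markers highest in pericytes were 12 to 13 under the settings run. With 1 library left out, calls between genotypes ranged from 0 to 1 higher and 0 to 4 lower. The difference from endothelial nuclei gave 0 to 3 higher and 0 to 8 lower, and that from meningeal nuclei 0 to 2 higher and 0 to 4 lower. Without WT 1 the lower calls in pericytes were Sox2ot, Errfi1, Kcnip4 and Csmd1. Without the pericytes with 3 or more endothelial marker UMIs, 1 gene was called lower (Csmd1, log2 change -4.08, adjusted p = 0.0473, edgeR). That rule counted Flt1 with Pecam1, Cdh5, Cldn5 and Kdr. It left out 14 pericytes, of which 1 had at least 3 UMIs over the 4 markers other than Flt1. The 2 nuclei of WT 2 with 22 and 15 Csmd1 UMIs had 1 endothelial marker UMI each and stayed in. With no filter on low counts, 4 genes were called lower against endothelial nuclei (Errfi1, Kcnip4, Hbb-bs and Hba-a1). Without the pericytes rich in neuron markers, a setting added after seeing the data, 1 gene was called higher (Pcdh15) and 2 lower (1 of them Sox2ot) against meningeal nuclei. The cause of these changes was not tested.

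With the replicate block, 3 genes were called lower against meningeal nuclei (Csmd1, Errfi1 and Sox2ot), and the block changed no other call between genotypes. The blocked share of pericytes had a log2 change of 0.12 (SE 0.42). The log2 ratio to endothelial nuclei, as Tbx1+/- against WT, was -1.09 in batch 1 alone, 0.15 in batch 2 alone and -0.47 as the mean within batches.

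The log2 change of the share turned to -0.46 in nuclei with at least 2000 detected genes and to -0.0063 with unannotated barcodes added, and ranged from -0.36 to 0.71 with 1 library left out. The log2 ratio to endothelial nuclei ranged from -1.07 to 0.14 with 1 library left out and was -1.20 in nuclei with at least 2000 detected genes. The median log2 change of the pericyte markers turned to -0.10 in those nuclei and ranged from -0.054 without Tbx1+/- 2 to 0.54 without WT 1. Sox2ot against meningeal nuclei was fitted at -9.47 (SE 2.46) without Tbx1+/- 1 and at 3.47 (SE 7.35) without WT 2, where 1 genotype had 0 pericyte UMIs, so neither is a measured fold. With 1 library left out, Csmd1 against meningeal nuclei ranged from -3.39 to -0.84, the latter without WT 2. Errfi1 was at -3.27 without WT 2 and fitted at -8.65 (SE 2.81) without Tbx1+/- 2, where the remaining Tbx1+/- library had 0 pericyte UMIs, so this is no measured fold either. Of 87 values of counts of calls, counts of markers, the share and the ratio under other settings, 61 kept their direction or stayed within 1.5 times, 20 counts of calls went from 0 to between 1 and 8, and 6 values of the share and the ratio reversed. Of 212 values of single genes, the marker median and the number of genes at least 3-fold over the next type, 196 kept their direction and side of the threshold, 13 passed it and 3 reversed. With 12 to 25 pericytes a library, depth limited the genes tested to 1237.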
